A study of Mus musculus with 2 samples.

Results

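The genes described here encode the subunits of RNA polymerases I, II and III, the general transcription factors of the Gtf2 and Gtf3 families, the TBP-associated factors (TAFs) and the Mediator complex. They were taken by name: every gene whose single symbol in the array's platform annotation begins with Polr1, Polr2 or Polr3, with Gtf2 or Gtf3, or with Taf or Med and a digit. The rule used no measured value, and it found 85 of the 10843 named genes on the array. Of these, 25 carry a polymerase symbol, 19 a Gtf symbol, 12 a Taf symbol and 29 a Med symbol. They were measured in mouse tenocytes, the fibroblasts of tendon, on 2 two-colour spotted arrays from a study of how mechanical shear acts on flexor tendon cells. One array held pooled cells sheared for 6 h against pooled control cells of the same time, and the other held cells sheared for 12 h at 50 rpm against control tenocytes of that time. The labels place the sheared RNA in the Cy5 channel and the control RNA in the Cy3 channel of both arrays. The dyes were thus not swapped, and a dye effect on a probe cannot be told apart from shear. The labels give no strain, age, passage or rotation speed for the 6 h cells, and cells from several sources may be joined in the 6 h pools.

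Each value is a log2 ratio, likely of sheared over control cells, set to 0 at the median of all spots of its array. The base of the logarithm is assumed, and the direction rests on the dyes in the labels. Were the ratio control over sheared, all signs given here would turn. Each time point has 1 array, so there is no test: a gene is called higher or lower when it is at least 1.5-fold (0.58 on the log2 scale) from 0 on that array. In such RNA from whole cultures, fewer cells of a type and less RNA per cell cannot be told apart. The only error available is the SD between different probes of a gene, which was 0.738 at 6 h and 0.855 at 12 h when pooled over all genes and 0.586 and 0.574 when pooled over the members. A value on 1 probe has no such check, and 33 of the 85 genes had 1 probe.

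Transcription of nuclear genes is divided between Pol I, which makes the large ribosomal RNA precursor, Pol II, which makes messenger RNA, and Pol III, which makes transfer RNA and 5S ribosomal RNA. Each enzyme has a pair of large catalytic subunits surrounded by many small ones, and several small subunits are common to all of the enzymes. Pol II is brought to promoters by the general factors TFIIA, TFIIB, TFIID, TFIIE, TFIIF and TFIIH, where TFIID is the TATA-binding protein with its TAFs, and Mediator links these to DNA-bound activators.

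By their medians over all measured members, the polymerase genes stood highest of the classes on both arrays and the Gtf genes lowest. At 6 h the 25 polymerase genes had a median of 0.75 (1.68-fold higher), and at 12 h of 1.05 (2.07-fold higher). The TAF genes had medians of 0.16 at 6 h and 0.61 at 12 h, the Mediator genes 0.17 and 0.15, and the Gtf genes -0.17 and -0.23. The medians over all named genes were -0.11 and -0.14. Without centring, the 6 h medians of the TAF and Mediator genes and the 12 h median of the Mediator genes turned negative, while those of the polymerase genes stayed positive. Over genes with 2 or more probes, the TAF medians were 0.79 and 0.98 and the Mediator medians 0.53 and 0.54, against 0.76 and 1.24 for the polymerase genes, so that the TAF genes were then the highest class at 6 h. Without Med9os, a noncoding RNA, the Mediator medians were 0.29 and 0.34.

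Counted by gene, 33 of the 84 members measured at 6 h were at least 1.5-fold higher, against a share of 18.2% over all genes, and 23 were at least 1.5-fold lower, against 31.3%. At 12 h, 37 of 84 were higher, against 24.4% of all genes, and 21 were lower, against 33.1%. The polymerase genes held 14 of the 33 higher members at 6 h and 15 of the 37 at 12 h, with 3 lower on each array. Among the Gtf genes 4 of 19 were higher and 8 lower at 6 h, and 4 of 18 higher and 6 lower at 12 h. Outside the 12 subunits of Pol II, 23 of 72 members were higher (31.9%) and 23 lower (31.9%) at 6 h. At 12 h, 26 of 72 were higher (36.1%) and 21 lower (29.2%). The share of higher members there was still above the 18.2% and 24.4% of all genes. At a stricter threshold of 2-fold, 12 members were higher at 6 h, against 6.2% of all genes, and 9 lower, against 18.8%. At 12 h 28 were higher, against 14.5%, and 12 lower, against 20.5%. Taf7l had no value at 6 h, and Gtf2e1 had none at 12 h.

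**Figure D1:**
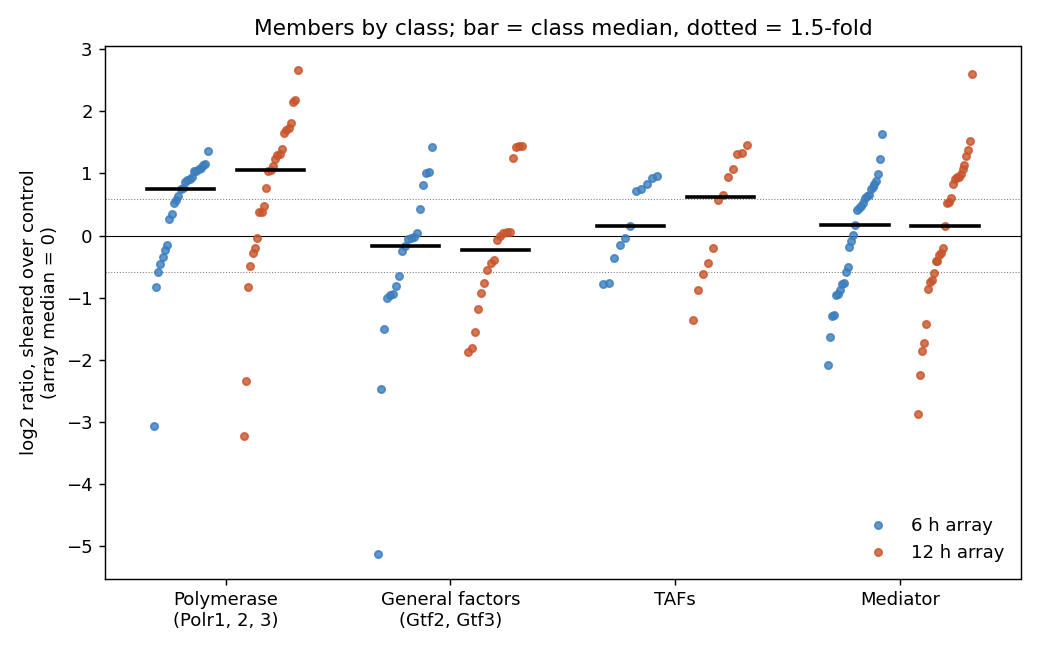
Log2 ratio of sheared over control cells (vertical axis) for each member, by class, on the 6 h array (left in each class) and the 12 h array (right). Points are genes in rising order, black bars are class medians and dotted lines mark 1.5-fold; the polymerase medians of 0.75 and 1.05 lie above those of the other classes.

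The 12 subunits of Pol II stood higher almost without exception. At 6 h, 10 of 12 passed 1.5-fold upwards and none downwards, around a median of 1.04 (2.06-fold). At 12 h, 11 of 12 did so and none was lower, around a median of 1.55 (2.92-fold). Over all genes, 18.2% were higher and 31.3% lower at 6 h, and 24.4% and 33.1% at 12 h. The exceptions were Polr2a, which carries the C-terminal repeat domain and part of the active site, and Polr2b, which forms the opposite side of the catalytic cleft. Polr2a read -0.24 and -0.44 on its 2 probes at 6 h, and 0.73 and 0.81 on the same probes at 12 h, so both probes lay below 0 at 6 h and above it at 12 h. Polr2b stood at 0.26 (probe SD 0.361, 3 probes) at 6 h and 0.37 (probe SD 0.418) at 12 h, below 1.5-fold on both arrays.

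The small subunits that belong to Pol II alone were higher on both arrays, as were 13.8% of all genes. Polr2d and Polr2g, which form the stalk of the enzyme, stood at 1.37 (probe SD 0.142, 2 probes) and 1.15 (probe SD 0.250, 3 probes) at 6 h. At 12 h the stalk pair stood at 2.14 (probe SD 0.179) for Polr2d and 2.19 (probe SD 0.0535) for Polr2g, or 4.42-fold and 4.56-fold higher. Polr2c and Polr2j build the assembly platform of the enzyme together with other small subunits. Polr2c stood at 1.04 at 6 h and 1.11 at 12 h on 2 probes, and Polr2j at 0.75 and 1.32 on 4 probes. Polr2i, a zinc-binding subunit that takes part in transcript cleavage and fidelity, stood at 1.09 and 1.39, on 2 probes that lay close together (probe SD 0.0332 at 6 h and 0.0226 at 12 h).

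All 5 subunits common to Pol I, II and III were at least 1.5-fold higher on both arrays, against 13.8% of all genes. Their medians were 1.05 at 6 h and 1.73 at 12 h. Polr2l, a small zinc-binding subunit needed for assembly, stood at 1.05 at 6 h and at 2.66 at 12 h, or 6.32-fold higher, the highest 12 h value among all members, on 1 probe. Polr2k, another zinc-binding assembly subunit, stood at 1.14 (probe SD 0.0474) and 1.70 (probe SD 0.517). Polr2f stood at 0.94 and 1.80, and Polr2h at 1.07 and 1.73, each on 2 probes. Polr2e, which contacts the incoming DNA, stood at 0.64 and 1.24, but 1 of its 3 probes read -0.10 and -0.03 while the other two were at least 0.64. Polr2m, which binds assembled Pol II rather than forming its core, stood apart from the subunits at -0.46 and -0.04 on 2 probes of unlike sign at each time.

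**Figure D2:**
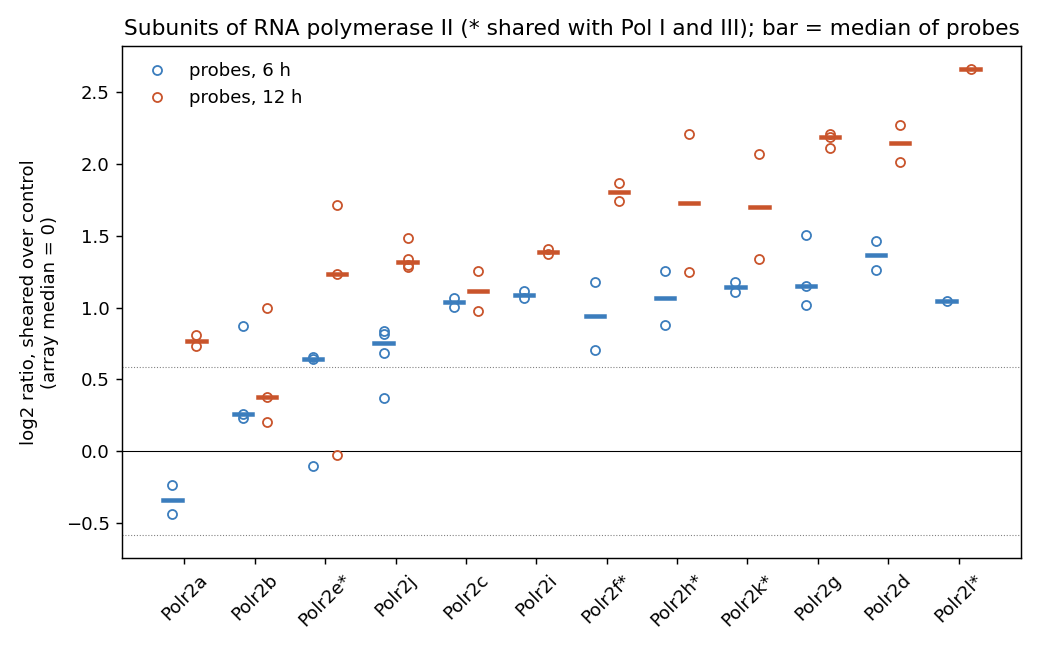
Log2 ratio of sheared over control cells (vertical axis) for the 12 subunits of RNA polymerase II, ordered by the mean of both arrays, with asterisks on the subunits shared by Pol I and III. Open circles are single probes, bars are the median of a gene's probes and dotted lines mark 1.5-fold; only Polr2a has both probes below 0, and only at 6 h.

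The probes of the Pol II subunits scattered less than those of all genes, with a pooled SD of 0.266 at 6 h and 0.420 at 12 h over the 11 subunits with several probes. All 12 subunits had a greater value at 12 h than at 6 h, with a median difference of 0.63, while 56.6% of all genes did. The 12 h array was also the wider of the arrays over all spots, with a median absolute deviation of 0.799 against 0.635 at 6 h. After scaling of the arrays to equal median absolute deviation, 11 of the 12 subunits still had the greater value at 12 h and the median difference was 0.36. No replicate array bears on this difference, so it was not tested.

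The start regions of 4 polymerase genes are shown because these genes span the range of the class. They are Polr2l, highest at 12 h, Polr2f, one of the shared subunits, Polr2a, the largest Pol II subunit, and Polr1a, lowest at 12 h. Each line gives the 250 bases before the annotated start on the coding strand, from RefSeq on GRCm38.p6, at chr7:141475154-141475403, minus strand for Polr2l, chr15:79141075-79141324, plus strand for Polr2f, chr11:69758634-69758883, minus strand for Polr2a and chr6:71908803-71909052, plus strand for Polr1a. Capitals mark matches, searched on both strands, to any of 4 short motifs. These are the GC box, spelled GGGCGG, and the ETS core, spelled CCGGAAG. The others are the TATA box, spelled TATAAA, and the CCAAT box, which is spelled as its name.
Polr2l: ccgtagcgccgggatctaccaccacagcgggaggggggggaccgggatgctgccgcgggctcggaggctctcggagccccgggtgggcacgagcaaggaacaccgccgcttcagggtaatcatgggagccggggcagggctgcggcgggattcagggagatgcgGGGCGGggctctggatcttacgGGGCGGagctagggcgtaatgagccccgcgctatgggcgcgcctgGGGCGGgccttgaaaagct
Polr2f: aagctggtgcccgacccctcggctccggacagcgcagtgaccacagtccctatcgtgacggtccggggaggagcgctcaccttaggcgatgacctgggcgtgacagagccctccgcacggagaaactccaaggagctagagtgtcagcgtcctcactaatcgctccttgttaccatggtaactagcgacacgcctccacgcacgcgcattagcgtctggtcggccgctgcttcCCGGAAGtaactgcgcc
Polr2a: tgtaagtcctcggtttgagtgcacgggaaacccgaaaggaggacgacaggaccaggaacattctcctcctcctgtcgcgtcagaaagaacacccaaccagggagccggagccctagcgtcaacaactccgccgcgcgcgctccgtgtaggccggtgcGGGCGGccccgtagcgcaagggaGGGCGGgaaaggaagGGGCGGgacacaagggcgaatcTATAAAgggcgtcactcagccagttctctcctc
Polr1a: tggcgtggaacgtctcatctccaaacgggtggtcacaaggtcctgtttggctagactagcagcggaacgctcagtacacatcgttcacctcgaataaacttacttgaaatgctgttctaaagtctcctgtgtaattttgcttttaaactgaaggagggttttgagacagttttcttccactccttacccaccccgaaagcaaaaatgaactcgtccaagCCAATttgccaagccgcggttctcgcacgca
Polr2l and Polr2a each hold 3 GC boxes, and Polr2a holds a TATA box that begins 33 bases before the start. Polr2f holds an ETS core that begins 17 bases before the start and none of the other motifs, and Polr1a holds a CCAAT box alone.

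Over windows of 250 bases before to 50 after the start, 26 of the 75 members with a listed promoter held the ETS core (34.7%), against 19.1% of the 8014 genes with a promoter that were measured on both arrays. The ETS core was found in 10 of the 25 members with a promoter that were higher on both arrays and in 6 of the 16 that were lower on both. The shares of the GC box were 62.7% of members and 66.0% of measured genes, of the CCAAT box 34.7% and 43.4%, and of the TATA box 14.7% and 10.3%. A TATA box was found in 6 of the 25 higher and 1 of the 16 lower members. These matches describe letters in the windows and were not tested.

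Among the subunits particular to Pol I and Pol III, the values ran from the lowest of the class to well above 1.5-fold. The pair shared by these enzymes, Polr1c and Polr1d, which nucleate their assembly, stood at 0.91 (probe SD 0.286, 3 probes) and 0.90 (probe SD 0.444, 5 probes) at 6 h. At 12 h Polr1d stood at 1.65 (probe SD 0.132), with every probe at 1.44 or more, whereas Polr1c stood at 0.37 (probe SD 0.375), below 1.5-fold. Of the Pol I subunits, the largest, Polr1a, stood at -0.83 at 6 h and -3.22 at 12 h on 1 probe, or 9.31-fold lower at 12 h. The second largest, Polr1b, stood at -0.14 and -0.19 on 2 probes. Polr1e, a smaller Pol I subunit, stood at 0.58 and 1.05 on 4 probes.

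The 7 subunits of Pol III alone had medians of 0.34 at 6 h and -0.27 at 12 h, with 2 higher and 2 lower on each array, where 18.2% of all genes were higher and 31.3% lower at 6 h, and 24.4% and 33.1% at 12 h. Polr3b, the second largest subunit and part of the active site, read -3.07 at 6 h and -2.34 at 12 h on 1 probe. Polr3k, a small subunit involved in termination, stood at 0.76 (probe SD 0.134, 5 probes) and 1.03 (probe SD 0.178), with all 5 probes above 0 on both arrays. The paralogs Polr3g and Polr3gl, which occupy the same place in alternative forms of the enzyme, both lay below 0, at -0.59 and -0.83 for Polr3g and at -0.23 and -0.48 for Polr3gl. Polr3d stood at 0.34 and -0.27 and Polr3e at 0.87 and 0.47, each on 1 probe. Polr3f had a 12 h value of 1.30, but its 2 probes read 2.80 and -0.20, and at 6 h 0.97 and 0.08.

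Set side by side, the large catalytic subunits had lower medians than the smaller ones, a grouping made after the values were seen. The 5 measured catalytic subunits, Polr1a, Polr1b, Polr2a, Polr2b and Polr3b, ran from -3.07 to 0.26 at 6 h, with none higher and 2 lower, and from -3.22 to 0.77 at 12 h, with 1 higher and 2 lower. Their medians were -0.34 and -0.19, and the 2 lower genes, Polr1a and Polr3b, each had 1 probe. The other 19 subunits had medians of 0.90 and 1.30, with 14 higher and 1 lower on each array. Of all genes, 18.2% were higher and 31.3% lower at 6 h, and 24.4% and 33.1% at 12 h. The groups overlapped, since the smaller Polr3g and Polr3gl lay below Polr1b and Polr2b on both arrays. Transcript length, protein length and transcript abundance were not used here, so their part in the difference between the groups was not tested.

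The general factors of Pol II were divided within almost every complex. Gtf2b, TFIIB itself, which joins Pol II to the promoter, was the highest Gtf gene at 6 h, at 1.42 (probe SD 0.644, 3 probes), and stood at 1.42 (probe SD 0.184) at 12 h as well. Gtf2a2, the small subunit of TFIIA, stood at 0.82 and 1.44, while Gtf2a1, which encodes the large subunits, stood at -0.81 and -1.17, each on 1 probe. In TFIIF, which escorts Pol II to the promoter, Gtf2f1 stood at 1.02 (probe SD 0.453, 3 probes) and 1.25 (probe SD 0.249), and Gtf2f2 at -0.03 and 0.06 on 4 probes. In TFIIE, which recruits TFIIH, Gtf2e2 stood at -0.02 and -0.39 on 2 probes, and Gtf2e1 read -2.46 on 1 probe at 6 h.

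TFIIH is the helicase and kinase complex that opens promoter DNA and also repairs it. Of its 4 measured Gtf2h genes, 1 was higher on both arrays, against 13.8% of all genes. This was Gtf2h5, its smallest subunit, at 1.01 (probe SD 0.252, 5 probes) and 1.44 (probe SD 0.133). The core subunits Gtf2h1 and Gtf2h4 lay within 1.5-fold on both arrays, at 0.42 and -0.07 for Gtf2h1 and at -0.06 and -0.01 for Gtf2h4, each on 2 probes. Gtf2h3, another core subunit, stood at -0.17 and -1.56 on 1 probe. The TFII-I family carries Gtf symbols but consists of DNA-binding regulators rather than general factors. In it Gtf2i stood at -0.95 (probe SD 0.0184, 2 probes) and -0.93 (probe SD 0.221), and Gtf2ird2 read -5.13 at 6 h, the lowest 6 h value of all members, and -0.44 at 12 h on the same single probe. Without these genes, a choice made after the values were seen, the Gtf medians were -0.06 and -0.04.

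The Pol III factors TFIIIA and TFIIIC held no higher gene on either array among only 6 measured genes. Of all genes, 18.2% were higher at 6 h and 24.4% at 12 h. TFIIIC binds the internal promoters of transfer RNA genes, and 4 of its 5 measured genes were at least 1.5-fold lower at 6 h and 3 at 12 h, against 31.3% and 33.1% of all genes. Gtf3c4 stood at -1.50 (probe SD 0.295, 2 probes) and -1.81 (probe SD 0.677), Gtf3c1 at -0.95 and -0.77 on 2 probes, and Gtf3c3 at -1.003 and -1.87 on 1 probe. Gtf3c5 stood at -0.65 at 6 h and -0.56 at 12 h on 1 probe. Gtf3c6, the smallest TFIIIC subunit, lay near 0 at 0.04 and 0.06 over 5 probes (probe SD 0.147 and 0.446). Gtf3a, or TFIIIA, the 5S RNA gene factor, stood at -0.25 and 0.04 on 1 probe.

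Among the TFIID TAFs, 4 of 8 were higher and 1 lower at 6 h, and 6 of 9 were higher and 1 lower at 12 h. The shares over all genes were 18.2% higher and 31.3% lower at 6 h, and 24.4% and 33.1% at 12 h. Taf12, Taf13 and Taf9b contain histone folds, by which several TAFs pair in the scaffold of TFIID. Taf12 stood at 0.84 (probe SD 0.182, 4 probes) and 1.33 (probe SD 0.0294), Taf13 at 0.71 (probe SD 0.118, 3 probes) and 1.32 (probe SD 0.265), and Taf9b at 0.75 (probe SD 0.249, 3 probes) and 1.46 (probe SD 0.156). Taf9b has a close paralog, Taf9, with which it may share signal. Taf6, the usual partner of Taf9, stood at 0.16 and 0.94 on 1 probe. Taf1, the largest TFIID subunit, stood at -0.76 and -0.44, and Taf4, which stabilises the scaffold, at -0.36 and -1.36, each on 1 probe.

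Other TAFs had values that changed side or rested on discordant probes. Taf7, a regulator of Taf1, stood at 0.93 (probe SD 0.692, 3 probes) at 6 h and -0.20 (probe SD 0.613) at 12 h. Taf7l, its germ-line paralog, read 1.08 on 1 probe at 12 h. Taf10 stood at -0.05 and 0.65, and its 4 probes ran from -2.94 to 0.85 at 6 h and from -0.80 to 1.15 at 12 h. In SL1, the TBP complex of Pol I, Taf1a stood at -0.77 and -0.61 and Taf1b at -0.15 and -0.87, each on 1 probe, against 0.96 (probe SD 0.524, 5 probes) and 0.58 (probe SD 0.296) for Taf1d.

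The Mediator genes differed by module, as the modules were listed here. The lists placed Med27, Med28, Med29 and Med30 in the head, and no other placement was tried. Med28 and Med29 were higher on both arrays, and Med27 and Med30 at 12 h only. The counts for head and tail rest on that placement. In the head, which contacts Pol II, 6 of 11 genes were higher and 1 lower at 6 h, and 8 were higher and none lower at 12 h, with medians of 0.60 and 0.92. In the kinase module, which blocks the contact with Pol II, the 4 measured genes with a Med symbol were at least 1.5-fold lower at 6 h and 3 of them at 12 h, with medians of -0.85 and -1.49. The kinases and the cyclin of this module carry other symbols, and the medians of Cdk8 and Ccnc lay within 1.5-fold of 0 on both arrays. At 12 h, however, their probes lay far apart, with a probe SD of 1.90 for Cdk8 and 1.497 for Ccnc. The tail as listed, which binds activators, had no higher gene on either array, 1 of 5 lower at 6 h and 3 of 5 lower at 12 h. The middle was mixed, with 4 of 9 genes higher on each array, 4 lower at 6 h and 3 lower at 12 h. Without Med9os, which is no subunit, it had 8 genes, with 4 higher and 3 lower on each array. Of all genes, 18.2% were higher and 31.3% lower at 6 h, and 24.4% and 33.1% at 12 h.

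In the head, Med29 stood at 0.88 (probe SD 0.0375, 2 probes) and 1.13 (probe SD 0.125), Med20 at 0.78 and 0.94 on 2 probes, and Med28 at 0.66 (probe SD 0.132, 3 probes) and 0.996 (probe SD 0.297). Med19 stood at 0.83 and 1.27, on probes of 1.55 and 0.12 at 6 h and of 1.92 and 0.63 at 12 h, and Med11 at 0.60 and 0.92 on 2 probes. Med6 stood at 0.76 and 0.60 and Med30 at 0.48 and 0.83, each on 1 probe, and Med22 at 0.17 and 0.53 on 2 probes. Med17, the scaffold subunit of the head, stood at 0.41 (probe SD 0.0983) and -0.40 (probe SD 0.00636) and its partner Med8 at 0.45 (probe SD 0.0488) and -0.31 (probe SD 0.237), so both lay above 0 at 6 h and below it at 12 h. Med27 stood at -1.63 at 6 h and 1.38 at 12 h. Its 6 h value is the median of a probe at -3.78, which had no value at 12 h, and a probe at 0.51, which read 1.38 at 12 h.

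In the middle, Med21 stood at 1.64 and 2.597 on 1 probe, or 3.11-fold and 6.05-fold higher, the highest 6 h value of all members. Its binding partner Med7 stood at 0.998 and 1.07, with 2 probes that read 2.41 and -0.28 at 12 h, and Med10 at 1.24 (probe SD 0.318, 4 probes) and 1.52 (probe SD 0.178). Med31 stood at 0.52 and 0.95 on 1 probe, and Med4 at 0.64 and 0.15 on 2 probes. The backbone subunit Med14, which joins head, middle and tail, stood at -0.88 (probe SD 0.431, 4 probes) and -1.72 (probe SD 1.59), with 1 of the 4 probes at 1.22 at 12 h. Med1, the contact of nuclear receptors, stood at -0.77 and -1.86 on 1 probe. Med9 stood at -1.29 and -0.86 on 1 probe, and Med9os, a noncoding RNA opposite Med9 and no subunit, at -1.28 and -0.28. No source used here gives the strand the spots detect, so the signals of Med9 and Med9os cannot be told apart.

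In the tail, Med23 stood at -0.50 and -1.42, Med16 at -0.95 and -0.60 and Med24 at 0.02 and -0.20, each on 1 probe. Med15, a target of activators, stood at -0.18 (probe SD 0.872, 3 probes) and -0.72 (probe SD 0.635), and Med25 at -0.09 and 0.54 on 2 probes. In the kinase module, Med13, which ties the module to the core, stood at -0.94 (probe SD 0.761, 3 probes) and -2.24 (probe SD 0.429), with all 3 probes below 0 on both arrays. Its paralog Med13l stood at -2.09 and -2.86 on 1 probe, or 4.25-fold and 7.28-fold lower. Med12, the activator of the kinase, stood at -0.59 and -0.42, and its paralog Med12l at -0.76 and -0.74, each on 1 probe. The cyclin of this kinase, Ccnc, stood at 0.27 (probe SD 0.147, 7 probes) and 0.23 (probe SD 1.497). The kinase Cdk8 stood at 0.16 (probe SD 0.375, 2 probes) and -0.07 (probe SD 1.90). The 12 h medians of Ccnc and Cdk8 thus join discordant probes and do not show that these genes were unchanged. The paralogous kinase Cdk19 stood at -1.17 and -1.80 on 1 probe.

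**Figure D3:**
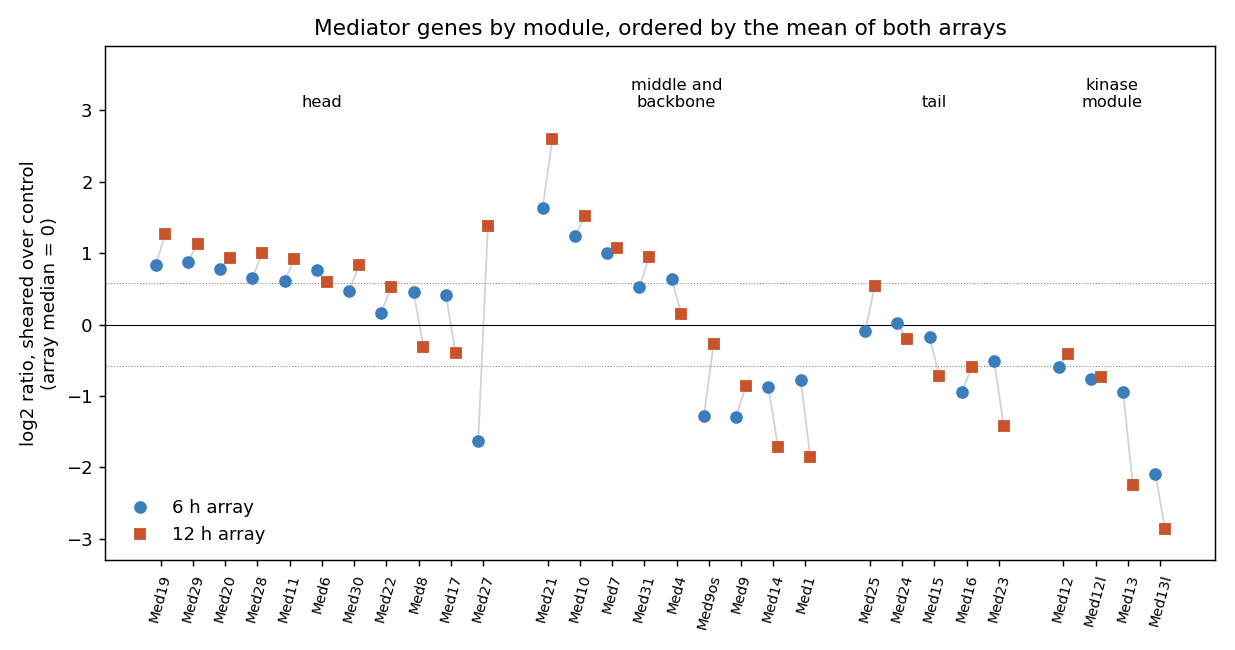
Log2 ratio of sheared over control cells (vertical axis) for the 29 genes with a Med symbol, by module and in order of the mean of both arrays. Circles are the 6 h array, squares the 12 h array, grey lines join the values of a gene and dotted lines mark 1.5-fold; the 4 Med genes of the kinase module lie below 0 on both arrays.

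Of the 83 members measured on both, 71 lay on the same side of 0, and the correlation across members was 0.71 (Pearson) and 0.84 (Spearman). Over all 10286 genes it was 0.66 and 0.74. These correlations are across genes on the same spotted design with the same placing of the dyes, and describe the arrays. There were 28 members at least 1.5-fold higher on both arrays, against 13.8% of all genes, and 16 lower on both, against 20.5%. Med27 alone was past 1.5-fold on opposite sides, as were 1.32% of all genes. Of the 28, 12 were polymerase genes, 9 Mediator genes, 4 Gtf genes and 3 TAF genes, and of the 16, 7 were Mediator genes and 5 Gtf genes. The widest difference between the times was that of Gtf2ird2, at 4.69 on 1 probe, and the farthest in the other direction was that of Polr1a, at -2.39 on 1 probe.

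**Figure D4:**
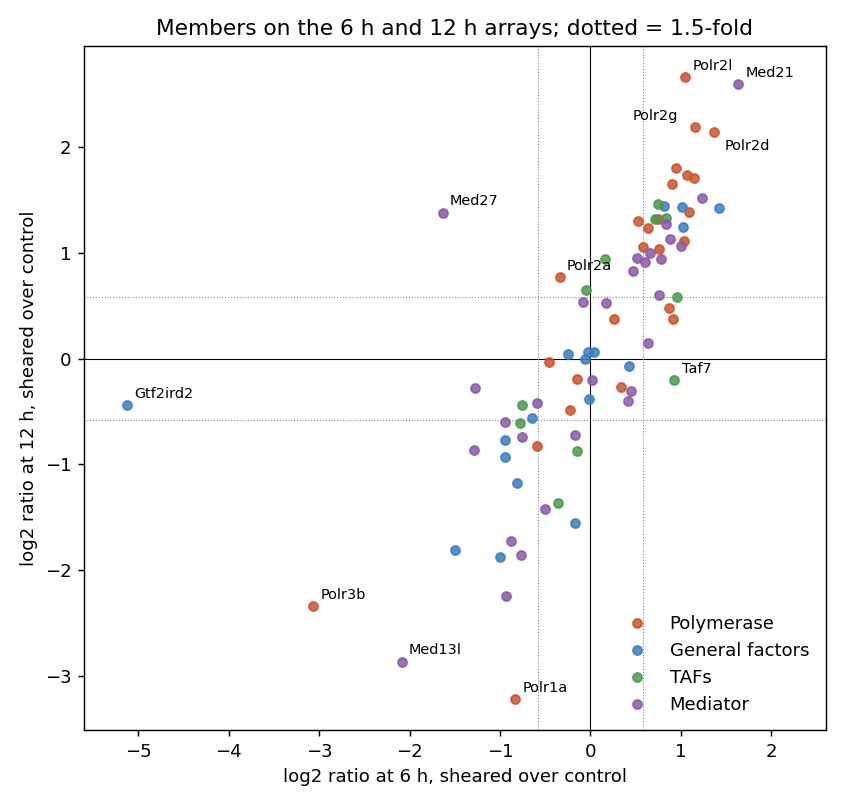
Log2 ratio of sheared over control cells at 6 h (horizontal axis) and at 12 h (vertical axis) for the 83 members measured on both arrays, coloured by class, with dotted lines at 1.5-fold. Of the 83 points, 71 have the same sign on both axes; Med27 is the only member past 1.5-fold in the upper left.

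The number of probes moved with the values. Members with 1 probe had medians of -0.55 at 6 h and -0.46 at 12 h, those with 2 probes 0.44 and 0.65, and those with 3 or more 0.75 and 1.04. Over all genes the medians were -0.32 and -0.31 with 1 probe, -0.05 and -0.07 with 2, and 0.13 and 0.11 with 3 or more. Of the 12 Pol II subunits 11 had several probes, whereas 3 of the 4 Med genes of the kinase module had 1. Spot brightness was not used here, and the part of probe number in the differences between classes was not tested.

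Genes that work with these complexes under other symbols were listed by role, and 66 of the 87 listed were measured. At 6 h 10 of these were higher (15.2%) and 14 lower (21.2%), against 18.2% and 31.3% of all genes. At 12 h 14 were higher (21.2%) and 19 lower (28.8%), against 24.4% and 33.1%. The share of lower genes was thus below that of all genes, mainly at 6 h. The medians were 0.02 and -0.11, beside -0.11 and -0.14 over all genes. Tbp, the TATA-binding protein at the centre of TFIID and SL1, stood at 0.29 (probe SD 0.267, 2 probes) at 6 h and -0.69 (probe SD 0.138) at 12 h. Of the TBP family, Tbpl1 had the highest mean of both arrays, at -0.04 and 0.16, and Btaf1, which removes TBP from DNA, the lowest, at -0.76 and -0.07. Of the other TFIIH genes, the cyclin Ccnh stood at 1.09 and 1.27 on 2 probes, while the helicase Ercc2 stood at -0.26 and -0.36 on 3.

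Among 21 pausing and elongation factors, 4 were higher (19.0%) and 3 lower (14.3%) at 6 h. At 12 h 7 were higher (33.3%) and 5 lower (23.8%). The shares over all genes were 18.2% higher and 31.3% lower at 6 h, and 24.4% and 33.1% at 12 h. The highest was Elob, a subunit of elongin, at 0.98 and 2.01 on 5 probes, and the lowest Ell2, a subunit of the super elongation complex, at -0.93 and -2.39 on 2 probes. The list of Pol II assembly factors and phosphatases of the C-terminal domain had 9 measured genes. At 6 h 2 were higher and 4 lower, and at 12 h 1 was higher and 4 lower. Crcp, a Pol III subunit placed in this list, stood at 0.69 and 0.52 on 1 probe. It was 1 of the 2 higher genes at 6 h. In that list the assembly GTPase Gpn3 stood at 0.75 and 1.01, and Rprd1a, a C-terminal domain binder, at -1.15 and -1.51 on 4 probes. For Pol I, Maf1, a repressor of Pol III that was placed in this list, stood at 0.45 and 1.45 on 2 probes and the termination factor Ttf1 at -0.96 and -2.20 on 1 probe. For Pol III and small nuclear RNA genes, Snapc2 stood at 0.47 and 0.00 on 1 probe and Snapc5 at -2.26 and -0.43 on 3 probes, and no gene of that list was past 1.5-fold at 12 h.

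The mitochondrial transcription genes had medians of 0.29 and 0.59 over 7 genes, of which 2 were higher at 6 h and 4 at 12 h, while none was lower at 6 h and 1 at 12 h. Of all genes, 18.2% and 24.4% were higher, and 31.3% and 33.1% lower. Tfb2m, which opens mitochondrial promoters, stood at 1.14 and 0.70 on 2 probes, and Mterf2 at -0.38 and -0.75 on 1 probe. SAGA, a coactivator that shares TAFs with TFIID, had no higher gene on either array among 8 measured partners. Of these, 3 were lower at 6 h, near the 31.3% of all genes, and 5 at 12 h, against 33.1%. The values ran from Usp22 at 0.25 and -0.02 to Supt3 at -1.34 and -1.52, each on 1 probe.

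**Figure D5:**
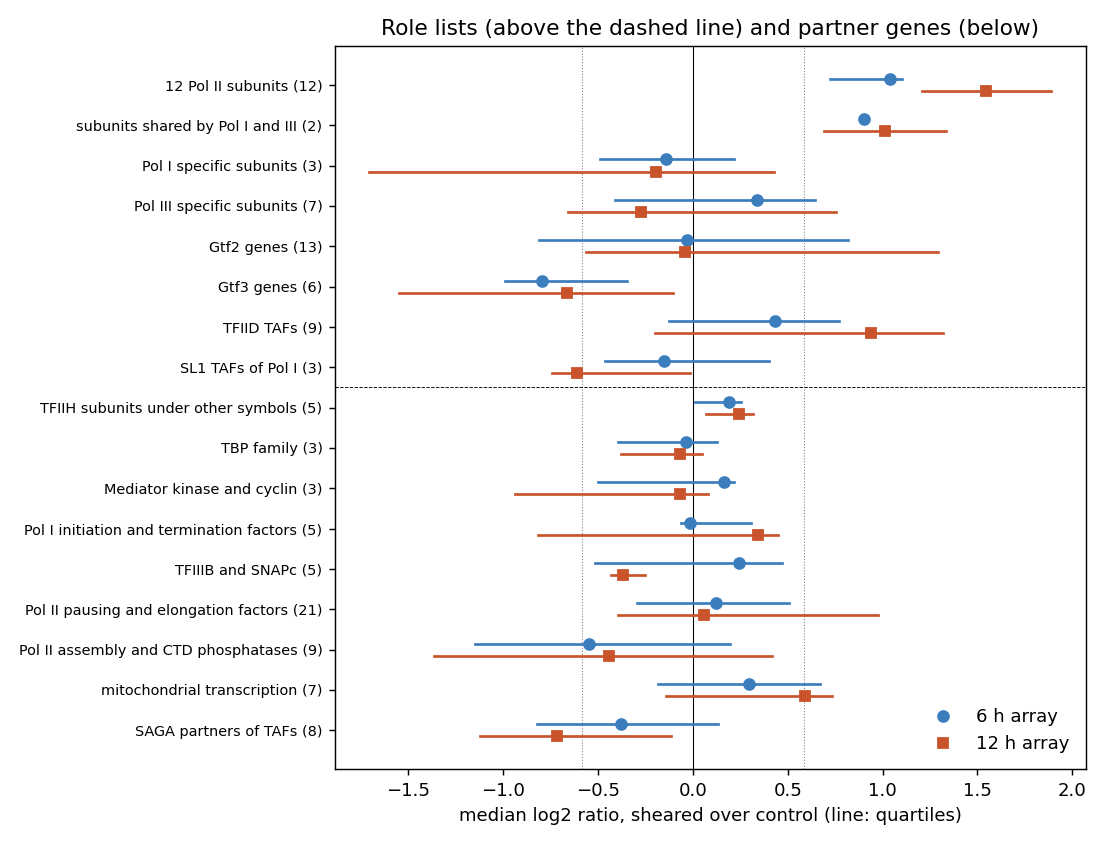
Median log2 ratio of sheared over control cells (horizontal axis) for role lists of the members (above the dashed line) and lists of partner genes (below), with the number of genes in brackets. Circles are the 6 h array, squares the 12 h array, lines span the quartiles and dotted lines mark 1.5-fold; the medians of the 12 Pol II subunits are 1.04 and 1.55.

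Facts of the arrays as a whole bear on these values. The 6 h array had 39776 measured spots and the 12 h array 41717, and the medians subtracted were -0.323 and -0.479. The table holds ratios, so the level of no marker could be read and the cell type could not be checked. Of 10 tendon and fibroblast markers 6 were measured, with medians of 0.07 and -0.07. Of 7 leukocyte markers 4 were measured, with medians of 0.42 and 0.80. They ran from -0.78 to 0.58 at 6 h and from -1.05 to 1.70 at 12 h, with 3 of the 4 above 0 on each array. The measured markers of endothelium (3 of 5), skeletal muscle (3 of 5) and cartilage and bone (2 of 5) had medians between -1.88 and 0.30 at 6 h and between -0.73 and 0.31 at 12 h. Their part in the members' values was not tested.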

How the data were processed

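The deposited table holds 1 log2 ratio per spot for each of 2 arrays, 42624 spots in all; the base of 2 is assumed from the range of -8.48 to 5.48. How the authors normalized these log2 ratios, their scanner, background correction and spot filter are not given in the sources used here. The dyes are those per the labels. The median of all spots was subtracted on each array. Names came from the platform annotation of GEO, in which 21701 spots had 1 symbol, 1124 several and 19799 none. A gene's value is the median of its probes with 1 symbol, as in 178 probes for the 85 members. In RefSeq for GRCm38.p6, all 85 gene IDs carried the same symbol. Of 105 protein-coding genes there whose symbol fits the rule, 21 were not among the members. Calls used a threshold of 1.5-fold. There is no replicate, so no test was run. Members and lists were chosen with earlier results of these data known. Values are given for every member. Partner genes named are those with the highest and lowest mean of both arrays in each list. Tbp, Cdk8 and Crcp, and the group of catalytic subunits, were chosen after their values were seen. Alternatives were no centring, centring of print blocks of 900 spots or on named genes, the mean of probes, 2 or more probes, only genes measured at both times, several-symbol probes kept, arrays scaled to equal spread and a 2-fold threshold. Calculations used Python 3.11.15 with pandas 2.3.3. The step from probes to gene values and counts was run on permuted probe values with a known shift added to some genes. This checks the code of that step only. Depth is unknown, and 1 array per time point limits the precision.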

Additional observations from a re-analysis of the deposited data

Results flagged for a closer look

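Med27, a Mediator subunit listed here with the head, was the only member at least 1.5-fold lower on one array and at least 1.5-fold higher on the other. Its log2 ratio was 1.38 at 12 h and -1.63 at 6 h, a difference of 3.01 for 12 h minus 6 h, and this difference was not tested. The probe measured on both arrays read 0.51 at 6 h and 1.38 at 12 h, and the sign of the gene's 6 h value rests on a second probe at -3.78 that had no value at 12 h.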

How the results depend on the processing

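No paired analysis was possible because each time point has 1 array. The planned relation to protein length was not run, since no protein lengths were used here. A class median was taken as moved when it shifted by more than the pooled probe SD divided by the square root of the number of genes, and a count when it changed by more than 1.5 times. No value of a member past 1.5-fold changed sign under any alternative, and none moved by more than the pooled probe SD. Much of this was fixed beforehand. Without centring every value shifts by 0.323 at 6 h or 0.479 at 12 h, less than the 1.5-fold threshold and the pooled probe SD. Scaling cannot change a sign, and settings that only drop genes leave the kept values as they were. The mean equals the median for genes with 1 or 2 probes. Such a change was thus possible mainly with print blocks centred, several-symbol probes kept, or the mean of more than 2 probes. Without centring the medians at 6 h and 12 h were 0.43 and 0.57 for polymerase genes, -0.49 and -0.71 for Gtf genes, -0.17 and 0.13 for TAFs and -0.16 and -0.33 for Mediator genes, against medians of -0.44 and -0.62 for all genes. The count of higher members at 6 h was then 17, against 8.35% of all genes, and that of lower members at 12 h 34, against 51.5%; higher members at 12 h were 26. Over genes with 2 or more probes the medians were 0.79 and 0.98 for TAFs and 0.53 and 0.54 for Mediator genes. Those of the polymerase genes were 0.76 and 1.24. In this setting 7 of 52 members were lower at 6 h and 7 of 51 at 12 h. Over all genes with 2 or more probes, 23.6% and 27.5% were lower. With probes of several symbols kept, the TAF median at 6 h was 0.54 over 15 genes. At a threshold of 2-fold, 12 members were higher and 9 lower at 6 h, against 6.2% and 18.8% of all genes, and 28 were higher and 12 lower at 12 h, against 14.5% and 20.5%. Without Med9os, an alternative added after the data were seen, the Mediator medians were 0.29 and 0.34. The other alternatives moved no class median or count of members beyond these limits. Signal over background could not be checked.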

Other observations

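Probes that carry a further gene's symbol beside that of a TAF, Gtf or Mediator gene were left out of the values above. The 3 probes shared by Taf9, the histone-fold partner of Taf6, and Ak6 read 0.87 to 1.30 at 6 h and 1.05 to 2.33 at 12 h. The 4 probes shared by Taf10 and Ilk read 0.51 to 0.63 at 6 h and 0.60 to 1.01 at 12 h, within a narrower range than the 4 probes of Taf10 alone. The 2 probes shared by Taf3 and Gm13262 read -1.02 and -2.43 at 6 h, and -1.18 and -2.17 at 12 h. The 2 probes shared by Gtf3c2 and Mpv17 had opposite signs on both arrays. Taf11 shared 2 probes with Naxd (0.65 and -1.49 at 6 h, 1.03 and -0.37 at 12 h), Taf6l 1 with Gm2518 (1.32 and 1.74), and Med20 1 with Usp49 (-0.81 and 0.54). These probes cannot be assigned to either gene.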
